A study of Rattus norvegicus with 4 samples.

Results

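The genes described here make and load the peptides that MHC class I molecules show at the cell surface: B2m, Tap1, Tap2, Tapbp, Psmb8, Psmb9 and Psmb10. They were taken by name, as every array probe whose RefSeq accession belongs to one of these 7 symbols, out of 16581 rat genes with a symbol on the array. The 7 genes had 9 probes, printed in 11 spots on each array.

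Transcripts were measured in NR8383, an established line of rat alveolar macrophages that was started from lung lavage of a normal rat and grows partly attached and partly floating. All 4 samples were biological replicates of 1 group, NR8383 cells after 20 passages that received NiZnFe2O4 (by its formula a mixed nickel-zinc-iron oxide) for 4 h at a concentration of 9.25 µg/mL. The samples share one line, so the values describe that line and not macrophages of several animals. Arrays of the untreated cells named in the design were not analysed here, so no value below shows what the exposure changed.

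MHC class I molecules carry short peptides from proteins made inside the cell to its surface, where cytotoxic T cells read them. The proteasome cuts the proteins, and in immune cells 3 of its catalytic subunits can be replaced by Psmb8, Psmb9 and Psmb10, which together make the immunoproteasome. The TAP transporter, a pair of Tap1 and Tap2, moves peptides into the endoplasmic reticulum, where Tapbp (tapasin) holds empty class I molecules beside it, and B2m is the light chain of every class I molecule. Interferons raise the transcription of many of these genes, in part through interferon response elements in their promoters, and macrophages respond to interferons in this way.

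In the RefSeq annotation of the rat assembly GRCr8, Tap2, Psmb8, Tap1 and Psmb9 follow each other on chromosome 20 with no gene between them. Tapbp lies on the same chromosome, 30 annotated genes further on. Psmb10 lies on chromosome 19 and B2m on chromosome 3. The promoter stretches below are shown because they hold matches to searched motifs ahead of or at the start sites of members. Capitals mark matches to an interferon response element (ISRE-type, GAAA and again GAAA with any 2 bases between them), to an NF-kB-type site (the second capitalised run of the Tap1 sequence) or to an interferon gamma-activated (GAS-type) site (TTCNNNGAA). Each motif was searched on both strands. Sequences are written along the strand of the gene, 5′ to 3′, from RefSeq's GRCr8.

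B2m, chr3:129549150-129549232, plus strand, an ISRE-type match and then an NF-kB-type match on the opposite strand: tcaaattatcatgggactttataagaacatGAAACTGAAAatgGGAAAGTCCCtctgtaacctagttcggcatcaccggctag
Tap1, chr20:4668559-4668694, minus strand, an ISRE-type match on the opposite strand and then an NF-kB-type match: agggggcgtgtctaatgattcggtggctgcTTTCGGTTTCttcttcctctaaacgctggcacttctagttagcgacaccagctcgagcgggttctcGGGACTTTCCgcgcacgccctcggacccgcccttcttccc
Tap2, chr20:4652298-4652367, minus strand, an ISRE-type match: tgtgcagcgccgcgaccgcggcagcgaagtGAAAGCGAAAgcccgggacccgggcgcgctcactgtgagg
Tapbp, chr20:4967881-4967910, minus strand, a pair of overlapping ISRE-type matches: tttgaggGAAAATGAAAGTGAAAggaaaca
Psmb8, chr20:4657016-4657045, minus strand, an ISRE-type match on the opposite strand: gtgctgtggcTTTCGCTTTCacttccttgt
Psmb8, chr20:4657238-4657281, minus strand, a GAS-type match: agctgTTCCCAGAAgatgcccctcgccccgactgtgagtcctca
Psmb10, chr19:50743293-50743395, minus strand, a pair of ISRE-type matches: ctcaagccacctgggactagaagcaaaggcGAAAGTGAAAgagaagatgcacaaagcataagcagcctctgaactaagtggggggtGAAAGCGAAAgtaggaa

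Each window ran from 250 bases before the annotated start site to 50 bases after it. The ISRE-type letters stood in the windows of 6 of the 7 genes, against 3.92% of the 33469 promoter windows of the RefSeq table. B2m and Tap1 held the NF-kB-type letters, which 0.111% of all windows hold. The GAS-type letters stood in 1 member window, that of Psmb8, from position -245 to -237, against 8.87% of all windows. No member held the SP1-type letters GGGGCGGGG, found in 9.73% of all windows. Psmb9 held none of the 4 motifs in its own window, which overlaps that of Tap1, transcribed away from it, over 44 bases. In Psmb8 the ISRE-type letters crossed the start site, from position -4 to 6, and in Tapbp they lay inside an annotated gene span. These are matches of letters in reference windows. No array here measured binding or promoter activity.

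**Figure D1:**
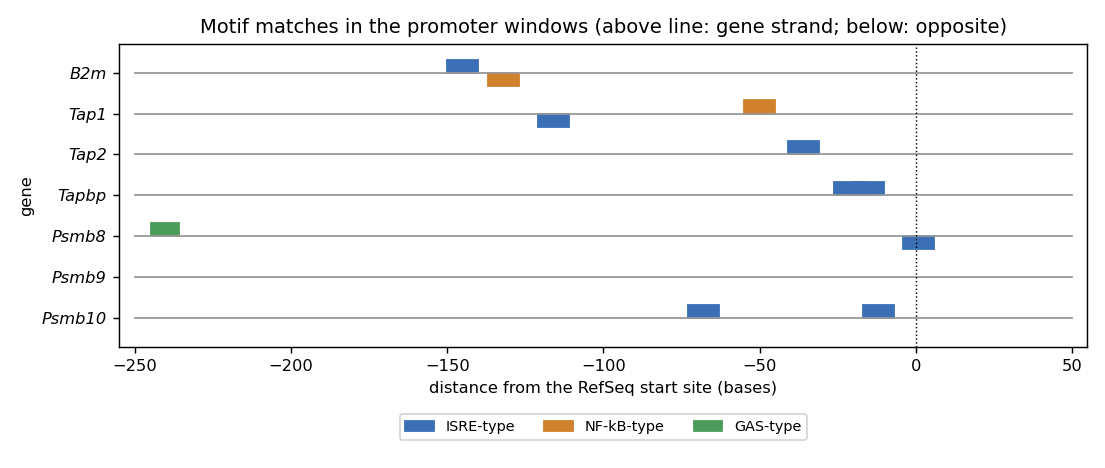
Position of each motif match (coloured blocks) in the promoter windows of the 7 genes, in bases from the RefSeq start site (dotted line), with blocks above a line on the gene's strand and below it on the opposite strand. ISRE-type matches stand in 6 windows, NF-kB-type matches in those of B2m and Tap1, and the Psmb9 window is empty.

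The scanner software's overall mark was in range for the arrays of replicates 1 and 3 and asked for evaluation for those of replicates 2 and 4. The latter also had more outlier spots, 828 and 702 against 511 and 491. Between 21812 and 24981 of 58717 rat spots per array were well above background, a flag that the scanner software sets for spots clearly brighter than their surroundings. None of these arrays had a saturated rat spot, no pair of arrays shared a spot with equal signal, and all 4 lay on 1 slide with 1 scan time. The number of arrays limits the precision of every value. The macrophage markers Cd68, Lyz2, Csf1r, Ptprc, Cd14, Fcgr1a, Itgam, Spi1 and Tyrobp were well above background on all 4 arrays (9 of 12 markers), while Adgre1 and Marco were so on none and Mrc1 on 3. All 7 lung epithelial markers were below that mark on every array. Of 7 lymphocyte markers with a probe Nkg7 passed, and of 8 fibroblast and endothelial markers Dcn, Cdh5 and Vwf passed. Their part in the levels below was not tested.

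All 7 class I processing genes were found in the exposed cells. Each was well above background on all 4 arrays, as were 38.7% of all genes with a symbol. Of the 44 readings of the 11 spots, 43 passed, none carried an outlier flag and none was saturated. The exception was 1 of the 2 Tap1 probes on replicate 2. Signals are given in intensity units of the processed signal, which is background-subtracted and not scaled between arrays. Levels are log2 signals relative to the 75th percentile over all probes of the same array. Signals of different probes depend on their sequences, so levels of different genes are not ranked.

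B2m, the light chain, gave a processed signal of 12439, 9794, 6642 and 7484 on replicates 1 to 4. These unscaled signals stood in the same order as the 75th percentiles of the arrays, brightest on replicate 1 and dimmest on replicate 3. After scaling, its log2 level was 8.22, 8.23, 8.14 and 8.24, with a mean of 8.21 ± 0.04 (SD, n = 4). The 4 scaled values lay within 1.07-fold of each other, and only 0.950% of the genes well above background had a smaller SD. How small this spread is depends on the scaling: the SD was 0.09 with the percentile taken over detected probes, 0.15 after quantile normalization and 0.41 without scaling.

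Tap1, a subunit of the peptide transporter, had 2 probes. The brighter one gave 99.1, 92.2, 78.5 and 98.4 intensity units on replicates 1 to 4, or log2 levels of 1.25, 1.496, 1.74 and 1.99, with a mean of 1.62 ± 0.32 (SD, n = 4). The dimmer probe gave 29.4, 10.8, 26.1 and 35.2 units. On replicate 2 it was not well above background, and its raw signal there was 1.75 times the local background, against 2.43 to 2.74 times on the other arrays. Both probes were highest on replicate 4 after scaling. They disagreed on replicate 2, where the dimmer probe lay 1.12 log2 units below its average distance from the brighter one. On this scale the brighter Tap1 probe had the largest SD of the 7 genes, but not without scaling or with normexp (B2m larger, 0.41 and 0.28) or with spike-in centring (Tap2 larger, 0.64). Of the genes well above background, 74.5% had a smaller one.

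Tap2, the partner of Tap1, was measured by a probe in 2 spots and by another in 1 spot. The first gave a mean of 483, 457, 322 and 294 units on replicates 1 to 4, and the second 229, 228, 136 and 140 units. In both probes replicates 1 and 2 were brighter than 3 and 4 before scaling. On the scaled log2 scale the first probe stood at 3.54, 3.81, 3.78 and 3.57 (3.67 ± 0.14, SD, n = 4), and its distance to the second probe varied with an SD of 0.10. The 2 spots of the first probe differed by 0.07 to 0.34 log2 units on the same array. The largest of these, on replicate 4, exceeds the whole range of Tap2 between arrays, 0.27 log2 units. On replicates 1 to 3 the spots differed by 0.07, 0.20 and 0.08, less than that range. Differences between replicates are therefore uncertain, most of all for replicate 4, and were not tested.

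Tapbp, the chaperone that bridges the transporter and class I molecules, gave 191, 176, 131 and 123 units. Its log2 level was 2.20, 2.43, 2.48 and 2.32 (2.36 ± 0.13, SD, n = 4). The scaled values overlapped within 1.22-fold, with replicate 1 lowest and replicate 3 highest.

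Psmb8, which takes the place of Psmb5 in the immunoproteasome, was measured in 2 spots with a mean of 4100, 3766, 3365 and 3804 units. Its unscaled signal was thus nearly flat over the arrays, while the median gene, unscaled, deviated by 0.42, 0.12, -0.33 and -0.20 log2 units on replicates 1 to 4. Its scaled log2 level was 6.62, 6.85, 7.16 and 7.26 (6.97 ± 0.29, SD, n = 4), lowest on replicate 1 and highest on replicate 4. The 2 spots of Psmb8 differed by 0.02 to 0.15 log2 units within an array, less than the range of 0.64 between arrays.

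Psmb9, which takes the place of Psmb6, gave 1855, 1324, 1469 and 1229 units and scaled log2 levels of 5.48, 5.34, 5.97 and 5.63 (5.604 ± 0.27, SD, n = 4). Replicate 3 stood highest and replicate 2 lowest. Psmb10, which takes the place of Psmb7, gave 2286, 2086, 1942 and 1715 units and scaled log2 levels of 5.78, 5.995, 6.37 and 6.11 (6.06 ± 0.25, SD, n = 4). Here too replicate 3 stood highest, with replicate 1 lowest. The spread of the immunoproteasome subunits between arrays was 1.51-fold for Psmb10, 1.54-fold for Psmb9 and 1.56-fold for Psmb8.

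**Figure D2:**
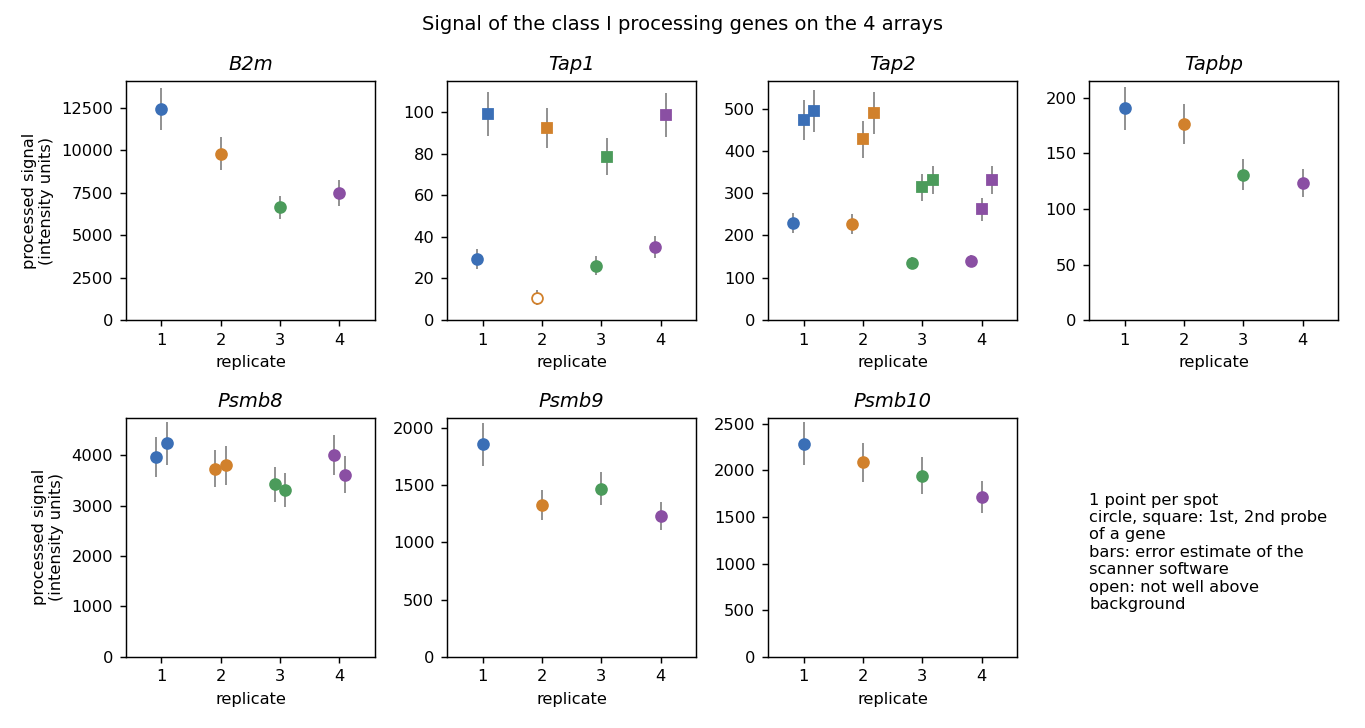
Processed signal in intensity units (linear axis from 0, a scale of its own per gene) of every spot of the 7 genes by replicate, with circles and squares for the first and second probe of a gene, bars for the scanner software's error estimate and an open symbol for a spot not well above background. B2m falls from 12439 on replicate 1 to 6642 on replicate 3, while the spots of Psmb8 stay between 3312 and 4235; the open symbol is the dimmer Tap1 probe on replicate 2.

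The median SD of the 7 genes was 0.25 log2 units, beside 0.23 over the 6418 genes well above background. Which of these is larger depends on the treatment. The members' median was below that of all genes without scaling (0.26 against 0.38) and with spike-in centring (0.49 against 0.57). It was also below with normexp (0.11 against 0.19), after quantile normalization (0.18 against 0.22) and with the percentile over detected probes (0.20 against 0.22). It stayed above with the local trend removed (0.23 against 0.22) and with the mean of all probes (0.25 against 0.23). No member had an SD above 0.5, as 5.73% of those genes did. No member had 1 array apart from the other 3 by Dixon's ratio (the gap of the extreme value over the whole range, set against its critical value for 4 samples), as 4.91% of those genes did. B2m came nearest, with a ratio of 0.822 for its low value on replicate 3. On this scale B2m, Tapbp and Tap2 had SDs up to 0.14, and Psmb10, Psmb9, Psmb8 and Tap1 had SDs from 0.25. This order did not hold without scaling (B2m 0.41, Psmb8 0.12), with spike-in centring (B2m 0.59, Psmb8 0.35) or with normexp (B2m 0.28, Psmb10 0.096).

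**Figure D3:**
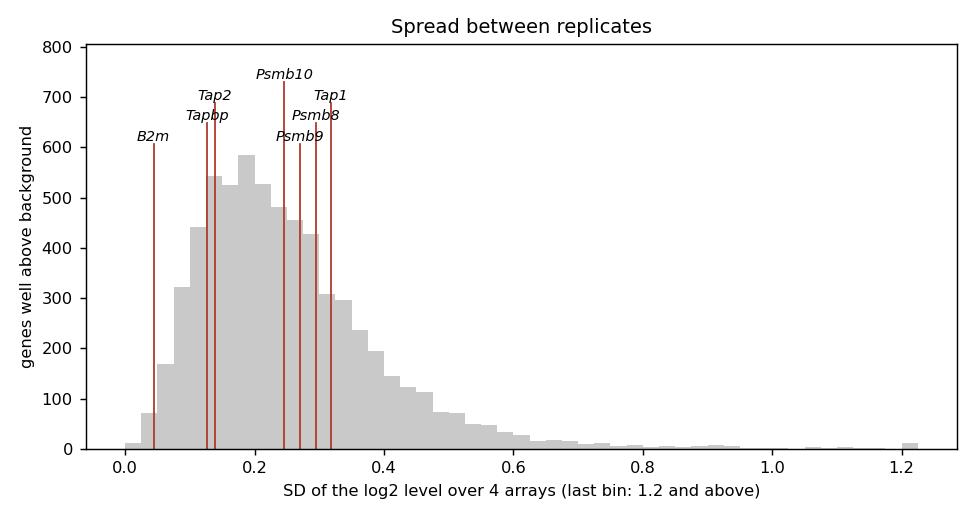
Number of genes well above background (grey bars) by the SD of their scaled log2 level over the 4 arrays, with a red line at the SD of each of the 7 genes. B2m at 0.04 stands at the left edge and Tap1 at 0.32 furthest right, all below 0.5.

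Because a shift of a whole array moves every gene alike, the members were also expressed relative to the median deviation of all genes well above background. This quantity differs by less than 0.01 between the scalings that move a whole array by 1 factor. The mean of Psmb8, Psmb9 and Psmb10 deviated by -0.20, -0.14, 0.27 and 0.06 log2 units on replicates 1 to 4 on this measure. B2m deviated by 0.07, 0.03, -0.08 and -0.03, with the opposite sign on each array. With the local trend removed, B2m had the same sign as that mean on replicates 2 and 4. B2m was read from 1 spot per array. Over all probes in 2 spots, duplicates on an array differed by a median of 0.07 to 0.11 log2 units. The B2m deviations are of that size or smaller, so their signs are uncertain. Tap1 deviated by -0.31, -0.11, 0.10 and 0.31, Psmb8 by -0.29, -0.12, 0.17 and 0.23. These Tap1 values rest on its brighter probe. With the mean of all probes Tap1 deviated by -0.17, -0.66, 0.28 and 0.53, lowest on replicate 2, where its probes disagreed. Tap2 stood at -0.08, 0.14, 0.09 and -0.17, a range within the difference of its duplicate spots on replicate 4. Tapbp stood at -0.10, 0.08, 0.10 and -0.10. With 1 array per replicate and 1 group, no test of these differences between arrays was made. A replicate with less of a transcript per cell and one with fewer cells that hold it cannot be told apart in total RNA.

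The mean of the immunoproteasome subunits was also highest on replicate 3 and lowest on replicate 1 in treatments that can change its order on this measure. These were quantile normalization, normexp background correction, removal of the local trend and the mean of all probes. Replicate 3 then lay at 0.24, 0.14, 0.25 and 0.25. Depth moved with this pattern: replicate 1 was the brightest array and replicate 3 the dimmest, with 75th percentiles of 5.38 and 4.55 on the log2 scale over probes. Its part in the result was not tested. Around the members' spots, the neighbouring spots deviated by -0.15 to 0.16 log2 units on any array. With that local trend removed, the mean of the subunits deviated by -0.23, -0.11, 0.25 and 0.08 on replicates 1 to 4.

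**Figure D4:**
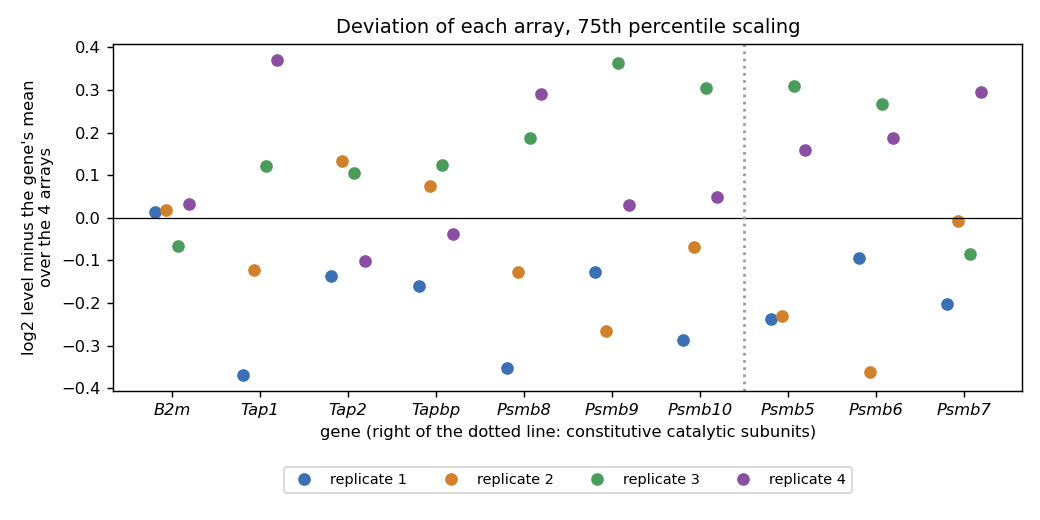
Scaled log2 level of each array minus the mean of the gene over the 4 arrays (1 point per replicate), for the 7 genes and, right of the dotted line, the constitutive catalytic subunits Psmb5, Psmb6 and Psmb7. Points of B2m lie within 0.07 of 0, while replicate 1 lies at -0.37 for Tap1 and -0.35 for Psmb8, and replicate 3 at 0.36 for Psmb9.

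The log2 ratio of 2 genes on the same array is free of scaling by a single factor. Its spread over the arrays describes how steady the measured proportion of 2 members was. Over the 21 pairs of members the median SD of this ratio was 0.24, beside 0.326 over all 20585736 pairs of genes well above background that were measured on every array. The steadiest pair was Tap2 with Tapbp, with an SD of 0.05, and 0.510% of all pairs had a smaller one. Tap1 with Psmb8, neighbours on chromosome 20, followed with an SD of 0.06, and 0.833% of all pairs had a smaller one. These pairs were picked as the lowest of 21 after their values were seen. Both SDs are below the median difference of duplicate spots on an array, 0.07 to 0.11 log2 units over all probes in 2 spots. The 2 spots of the first Tap2 probe differed by up to 0.34. The low SDs therefore do not show that these transcripts kept their proportion. The Tap1 and Psmb8 value rests on the brighter Tap1 probe: with the mean of all probes the SD was 0.38, after quantile normalization 0.13 and with the local trend removed 0.14. Tap2 with Tapbp stood at 0.08 to 0.10 in those treatments and with normexp. Tap1 with its transporter partner Tap2 had the widest ratio of all 21, with an SD of 0.34, whereas after quantile normalization and with normexp the widest was B2m with Tap1 (0.42 and 0.38). Tap1 with Psmb9, whose promoter windows overlap, had an SD of 0.29. The ratio of B2m had an SD of 0.16 to Tapbp and 0.17 to Tap2, and of 0.28 to 0.32 to Psmb10, Psmb9, Psmb8 and Tap1; with the local trend removed, its SDs to Tap2 and Psmb9 were both 0.23. The ratio of Psmb9 to Psmb10 varied with an SD of 0.15.

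**Figure D5:**
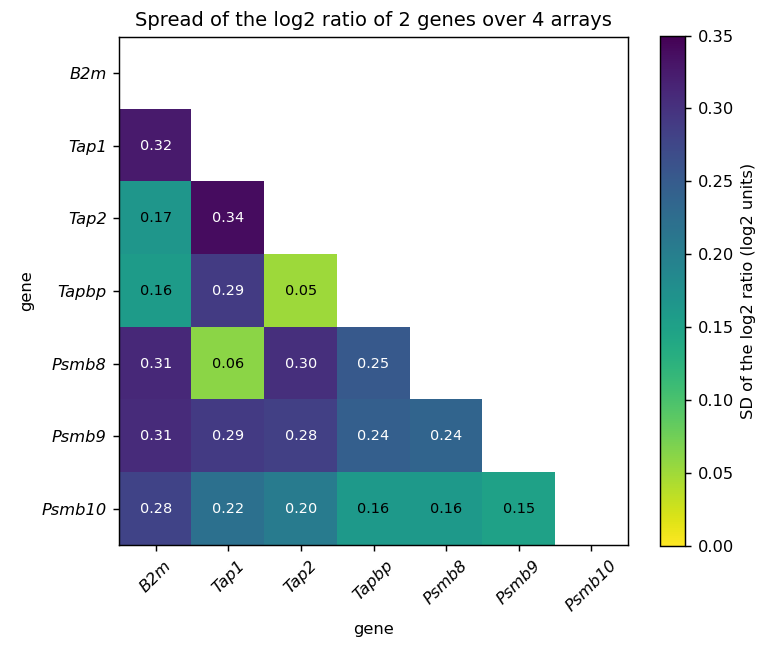
SD over the 4 arrays of the log2 ratio of each pair of members (colour and printed value, in log2 units; darker is wider). The lightest cells are Tap2 with Tapbp (0.05) and Tap1 with Psmb8 (0.06), and the darkest is Tap1 with Tap2 (0.34).

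The constitutive catalytic subunits Psmb5, Psmb6 and Psmb7, which the immunoproteasome subunits replace, were also well above background on all 4 arrays. Their median SD was 0.28. Psmb5 deviated from its own mean by -0.24, -0.23, 0.31 and 0.16 on replicates 1 to 4 and Psmb6 by -0.09, -0.36, 0.27 and 0.19, while Psmb7 stood at -0.20, -0.01, -0.09 and 0.29. The average of these 3 was -0.18, -0.20, 0.16 and 0.21, beside -0.25, -0.15, 0.29 and 0.12 for the immunoproteasome subunits on the same scale. Low values on replicates 1 and 2 and high ones on 3 and 4 were thus not particular to the immunoproteasome subunits. The ratio of Psmb8 to Psmb5, the pair that compete for one place, varied with an SD of 0.14. That of Psmb9 to Psmb6 had an SD of 0.12 and that of Psmb10 to Psmb7 one of 0.27. A low spread was not particular to these pairs. Pairs that do not share a place ranged from 0.10 (Psmb9 with Psmb5) to 0.34 (Psmb9 with Psmb7), with Psmb10 and Psmb5 at 0.12. All 11 other subunits of the 20S core passed as well, beside 38.7% of all genes, with a median SD of 0.21 per gene. They did not move together: on replicate 1 Psma3 and Psma6 lay 0.37 and 0.38 above their own means, while Psmb1 and Psma7 deviated by -0.36 and -0.27.

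Most partners of the pathway with a probe were measurable, where 38.7% of all genes with a symbol passed on all 4 arrays. Of 7 proteasome activators and assembly factors with a probe 6 passed on all 4 arrays, among them Psme1 and Psme2, the subunits of the interferon-inducible activator PA28, at 6.86 ± 0.14 and 7.78 ± 0.10 (SD, n = 4 each). Pomp, which helps the core assemble, stood at 7.95 ± 0.12 (SD, n = 4), and Psme4 passed on 2 arrays. Of 8 peptide loading partners 6 passed: Calr, Canx and Pdia3, chaperones of the loading complex, Tapbpl, a relative of tapasin, and Sec61a1 and Sec61b of the translocon. Tapbpl stood at -0.27 ± 0.44 (SD, n = 4). Lnpep, a peptide-trimming aminopeptidase, passed on 1 array and Uggt1, which returns misfolded glycoproteins to their chaperones, on none. No probe was matched to Erap1 or Ganab.

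Of 26 class I heavy chain genes and relatives with a probe, 22 passed on all 4 arrays, beside 38.7% of all genes. RT1-A1 and RT1-A2, classical heavy chains, stood at 9.05 ± 0.13 and 8.16 ± 0.10 (SD, n = 4 each). RT1-M3-1, a relative that presents formylated peptides, stood at 3.31 ± 0.12 (SD, n = 4), and Fcgrt, the neonatal Fc receptor chain that also pairs with B2m, at 3.73 ± 0.22 (SD, n = 4). RT1-CE11, RT1-O1 and Mr1 passed on no array and Cd1d1 on 2. Heavy chain genes are near-identical copies and differ between rat strains, so a probe can bind transcripts of several of them. These levels, and the count of genes that passed, are uncertain in that respect.

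Of 21 regulators of class I genes with a probe, 16 passed on all 4 arrays, beside 38.7% of all genes. Irf1, an interferon-induced factor that binds ISRE sites, stood at 2.96, 3.23, 3.70 and 3.36 on replicates 1 to 4 (3.31 ± 0.31, SD, n = 4). The interferon gamma receptor chains Ifngr1 and Ifngr2 stood at 5.53 ± 0.14 and 3.47 ± 0.19 (SD, n = 4 each). Irf8, Socs1, Nfya and Nfyb passed on no array, and Rfxap on 3. No probe was matched to Nlrc5, the class I transactivator, or to Ifnar2. Rfxank, a subunit of the factor that binds class I and class II promoters, had an SD of 1.11 and stood at 2.21, -0.03, 2.40 and 1.71 on replicates 1 to 4.

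Over 6410 other genes measured on every array, the ones nearest to Tap1 in their deviations on the 4 arrays were Selenoo, Tmem134 and Tor1a, at root mean square differences of 0.00391, 0.0111 and 0.0121 log2 units. Nearest to the mean of the 7 members were Abhd12, Tmub1 and Exo5, at 0.00839, 0.00942 and 0.00955. With 4 arrays many genes come close: 62 lay within 0.05 of Tap1 and 108 within 0.05 of the members' mean.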

How the data were processed

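The data were 4 one-colour Agilent arrays, 1 per replicate. The submitters' processing notes name Agilent Feature Extraction 11.0.1.1 for reading the scans. The deposited files hold linear intensities: per the file headers, the processed signal is background-subtracted and detrended within the array, and was deposited without scaling between arrays. Flags of 0 or 1 mark spots well above background.

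Here control spots (4259 per array) and outlier spots (491 to 828 per array) were left out, and spots of a probe were averaged on the log2 scale. A probe passed where at least 0.5 of its spots did, and a gene where any of its probes passed on all 4 arrays. Accessions were matched without versions to RefSeq transcripts of GRCr8, naming 21109 of 45598 probes and all 7 members. The array design names rn4, so coordinates are given only with the RefSeq promoter sequences. Each gene was read from its brightest probe by mean level, as log2 signal less the 75th percentile over all probes of the array. Only 25.4% of probes passed on all 4 arrays, so that percentile lies near background.

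With 1 group no test was made. Members and lists were chosen with earlier results of these data known. All members were named, with genes of the lists and the 3 nearest neighbours of Tap1 (largest SD) and of the members' mean. A regulator listed in the design is not reported here. The planned comparison of protein sequences was not made here. Procedures were tested on simulated data. Python 3.11.15, numpy 2.4.6, pandas 2.3.3, R 4.3.3 and limma 3.58.1 (normexp) were used.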

Additional observations from a re-analysis of the deposited data

Results flagged for a closer look

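In 2 of the 86 genes examined, a single array lay far from its companions by Dixon's ratio; by chance this happens in about 1 of 20 groups, and it did in 4.91% of all genes well above background. The 86 are the genes well above background in the lists other than the members. Of the 7 class I processing genes, examined separately above, none exceeded the critical value. Pdia3, the thiol oxidoreductase of the peptide loading complex, was low on replicate 1, at 2.68, where the other arrays gave 3.70 to 3.78 (Dixon's ratio 0.927). Irf9, a DNA-binding subunit of the factor that binds ISRE sites, was low on replicate 4, at 1.90 against 2.29 to 2.32 elsewhere (0.920). A second Irf9 probe, well above background on 2 arrays, was not lowest on that array. Spots around the first probe deviated upward there, by 0.14. Psmb8 and Tap1 were highest on that array.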

How the results depend on the processing

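No paired analysis was possible because the labels give 1 group. All 7 members stayed well above background with the looser flag, with 3 of 4 arrays, with every spot of a probe required, with outlier spots kept and without any 1 replicate. Requiring each probe of a gene to pass left 6, since the dimmer Tap1 probe failed on replicate 2. The median SD of 0.25 became 0.49 with spike-in centring and 0.11 with normexp (offset 50), where the median of all genes moved too, to 0.57 and 0.19 (the cause was not tested). It lay between 0.15 and 0.25 when 1 replicate was left out, lowest without replicate 3. Of the 3 nearest neighbours of Tap1, 1 stayed among the nearest 3 after quantile normalization, 0 with normexp, 0 with the local trend removed and 0 with the mean of all probes. For the mean of the members the count was 0 in each of these 4 settings. Leaving out 1 replicate left 1 of the 3 for Tap1 and 0 for the mean. The neighbours therefore rest on these settings. The SD of B2m without replicate 3 was 0.0091, since that array held its lowest value, and the SD of Tapbp with the local trend removed was 0.06. Averaging both Tap1 probes raised its SD to 0.58. Signal over background limits the dimmer Tap1 probe most. With 1 slide, no slide block could be fitted.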

Other observations

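Interferon-stimulated genes were measured in part. Of 18 such genes, all with a probe, 9 passed the background mark on every array (38.7% of all genes did), 3 did so on some arrays and 6 on none. Those that passed were Mx2, Isg15, Oas1a, Cxcl10, Gbp2, Usp18, Bst2, Ifi27 and Ifi47. Bst2, a membrane protein that tethers budding viruses, stood at 5.57 ± 0.14 and Mx2, an antiviral GTPase, at 5.10 ± 0.17 (SD, n = 4 each). The chemokine gene Cxcl10 stood at 1.209, 1.73, 2.32 and 1.31 on replicates 1 to 4 (1.64 ± 0.50, SD, n = 4), highest on replicate 3, as were Psmb9, Psmb10, Irf1 and Irf7. Ifi47, an interferon-inducible GTPase, was also highest there, at 2.20 against 1.42 to 1.97 on the others. Of the 9 interferon-stimulated genes that passed, 2 were highest on replicate 3, as were 5 of the 16 regulators that passed. Over all genes well above background this share was 24.5%. On the scaled level Isg15, Oas1a, Gbp2, Usp18 and Ifi27 were highest on replicate 4, as were Tap1 and Psmb8 and 37.1% of all genes well above background. Mx2 and Bst2 were highest on replicate 1. Ifit3 passed on 1 array. Cxcl9, Gbp5, Rsad2, Ifit1, Ifit2 and Ifih1 passed on no array, and Mx1 and Irgm on 3.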
